A study of Saccharomyces cerevisiae with 28 samples.

Results

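The genes described here are the 10 budding yeast genes that encode the HSP70 chaperones of the SSA and SSB families, the HSP110 chaperones, and the main HSP70 of the endoplasmic reticulum (ER) and of the mitochondrial matrix. They were chosen by systematic name, with no measured value in the choice, and are 10 of 9217 features counted in total RNA, 6013 of which are protein-coding genes of the annotation. The cytosolic SSA genes are SSA1 (YAL005C, chrI:139503-141431, minus strand), SSA2 (YLL024C, chrXII:95566-97485, minus), SSA3 (YBL075C, chrII:84499-86448, minus) and SSA4 (YER103W, chrV:364589-366517, plus). The ribosome-associated genes are SSB1 (YDL229W, chrIV:44065-45906, plus) and SSB2 (YNL209W, chrXIV:252059-253900, plus). The HSP110 genes are SSE1 (YPL106C, chrXVI:350194-352275, minus) and SSE2 (YBR169C, chrII:573915-575996, minus). KAR2 (YJL034W, chrX:381327-383375, plus) encodes the ER protein and SSC1 (YJR045C, chrX:519638-521602, minus) the mitochondrial one. Coordinates are coding sequences of the R64 (sacCer3) genome, and each gene has 1 coding exon.

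HSP70 chaperones bind exposed hydrophobic stretches of proteins and release them in a cycle driven by ATP. J-domain co-chaperones stimulate ATP hydrolysis, and nucleotide exchange factors, among them the HSP110 relatives Sse1 and Sse2, release ADP and so the client. In yeast, Ssa1 and Ssa2 are the abundant cytosolic forms, SSA3, SSA4 and SSE2 are known for induction by heat and other stress, and Ssb1 and Ssb2 sit at the ribosome and bind nascent chains. Kar2 helps proteins into and through the ER, and Ssc1 pulls imported proteins into mitochondria. Hsf1, and the general stress factors Msn2 and Msn4, are the known transcriptional activators of the inducible members.

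The study asked which mRNAs the La-related proteins Sro9 and Slf1, 2 RNA-binding proteins that associate with ribosomes, contact in growing cells and in early oxidative stress. PAR-CLIP was made from a strain with genomically TAP-tagged Sro9 (Sro9-TAP) and another with Slf1-TAP, each untreated or after 15 min in 0.4 mM hydrogen peroxide. Total RNA, depleted of rRNA, came from WT (BY4741), sro9Δ, slf1Δ, Sro9-TAP and Slf1-TAP strains, likewise untreated or after the same peroxide treatment. The paper describes the cultures for total RNA separately from those for PAR-CLIP, and names thiouracil, used for crosslinking, only for the latter. Every one of the 14 groups had 2 replicates, 28 libraries in all. Per the labels, cultures were divided into a treated and an untreated portion, so treated and untreated libraries may share a culture, and p-values measure only the spread between 2 libraries a group. The untreated and peroxide WT libraries enter every comparison between strains.

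The 12 untagged total RNA libraries held 3323216 to 21447260 counts, of which 1.44% to 94.8% fell on rRNA features, so protein-coding counts ran from 147158 to 18730415. The 3 libraries richest in rRNA were slf1Δ peroxide replicate 1 (94.8%), sro9Δ untreated replicate 1 (93.7%) and WT peroxide replicate 2 (81.4%). The 8 tagged libraries held 32079450 to 41098229 counts with at most 0.25% rRNA. SRO9 had 0, 0, 1 and 0 counts in the sro9Δ libraries and SLF1 had 0 in each slf1Δ library, with 14 or more counts of either in every WT library. In WT, sro9Δ and slf1Δ, 10 of 10 peroxide-induced genes of the Yap1 regulon were higher in both peroxide libraries than in both untreated ones (median log2 ratios 4.15, 3.77 and 3.55). In both tagged strains 10 of 10 were lower in the libraries labelled peroxide (-4.11 and -4.01). The names under which these 8 tables were deposited also give the other treatment, and the other tagged strain, than the labels do. The strain and treatment labels of the tagged total RNA are therefore in doubt, and those libraries are named only by their labels. PAR-CLIP libraries of Sro9 kept 678206 to 890669 reads in 6505 to 9022 clusters, and those of Slf1 342238 to 544490 reads in 709 to 1825 clusters.

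PAR-CLIP builds 4-thiouracil into RNA, and crosslinked bases are read as C in place of T. A cluster is a stretch of overlapping reads with such conversions, and its mode is the position of highest signal. Clusters with modes up to 5 nt apart were joined into a site, which gave 302 sites on 9 of the 10 genes. Of these, 6 were found in all 4 Sro9 libraries, and for 5 of them the cluster with the most reads is printed, to show contacts that recurred. Gene totals include the reads of all 6. Each sequence occurs once in the genome and is given as RNA sense, 5′ to 3′, in DNA letters, from the deposited cluster tables. Capitals mark the words TGGT and TGCT, and likewise the words CGGT and CGCT where they occur, and bases were numbered from the A of the start codon.

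SSA2, mode at nt 1896 to 1902, chrXII:95549-95600 (minus): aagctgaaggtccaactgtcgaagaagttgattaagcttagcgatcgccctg
SSE1, mode at nt 146 to 150, chrXVI:352111-352140 (minus): aacagatacttgggtgaaacTGGTaagaac
SSE1, mode at nt 615 to 619, chrXVI:351644-351661 (minus): tcactcttcctacacctg
SSE1, mode at nt 1998 to 2006, chrXVI:350262-350306 (minus): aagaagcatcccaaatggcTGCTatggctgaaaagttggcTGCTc
SSC1, mode at nt 1930 to 1931, chrX:519647-519679 (minus): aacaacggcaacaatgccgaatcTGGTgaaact

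The SSA2 site, which runs over the stop codon, held 86, 80, 86 and 38 reads in untreated replicates 1 and 2 and peroxide replicates 1 and 2. The SSC1 site held 45, 49, 51 and 58 reads in that order, and the 3 SSE1 sites between 15 and 41 reads a library. As raw counts, untreated and peroxide reads did not overlap at the SSC1 site, nor at the SSE1 site of nt 1998 to 2006 (32 and 41 untreated, 23 and 15 after peroxide). At the other 3 printed sites they overlapped or tied. Depth differed between these libraries, with scaled sizes of 452024 and 272328 untreated and 394486 and 312100 after peroxide. Raw site counts therefore do not compare binding between the conditions, and the share of all sites that separate so is not given.

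SSE1 and SSE2 are similar copies, so the same coding positions could be compared. The window of the second SSE1 site, nt 615 to 632, is printed for both genes from the RefSeq R64 sequence, with capitals at the 3 of 18 bases that differ.

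SSE1, chrXVI:351644-351661 (minus): TcaCtctTcctacacctg
SSE2, chrII:575365-575382 (minus): GcaTtctAcctacacctg

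Here both copies held cluster reads. SSE1 held 23, 24, 27 and 24 reads in Sro9 untreated replicates 1 and 2 and peroxide replicates 1 and 2, and SSE2 held 0, 7, 12 and 16. A differing base is C in SSE1 and T in SSE2, and crosslinked bases are read as C in place of T. Some short reads may therefore have been placed on the other copy. At the other 2 SSE1 sites, SSE2 had no cluster in any library. SSE2 RNA was scarcer than that of SSE1 in WT, as given below, and clusters of under 5 reads are not listed. A missing cluster is thus not read as absence of binding. These windows were chosen after the site reads had been seen.

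Total RNA levels of the 10 genes spread widely in untreated WT. Levels are CPM per kb of coding sequence, with library sizes scaled by TMM, which corrects for composition, and all 10 genes passed the filter on low counts. SSB1 was highest (957 and 1105 in replicates 1 and 2), followed by SSA2 (892 and 856) and SSB2 (734 and 863), which overlapped with SSA2. SSA1 (405 and 404) and SSE1 (430 and 342) overlapped with each other, and SSC1 (192 and 217) and KAR2 (120 and 136) lay below them. The 3 remaining genes were scarcer by more than an order of magnitude, with SSE2 at 6.17 and 9.76, SSA4 at 2.84 and 3.39, and SSA3 at 3.13 and 2.32. SSA3 and SSA4 overlapped. SSA1 with SSA2, and SSB1 with SSB2, share 64.0% and 58.7% of their 30-nt words, so the division of counts within each pair is uncertain.

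**Figure D1:**
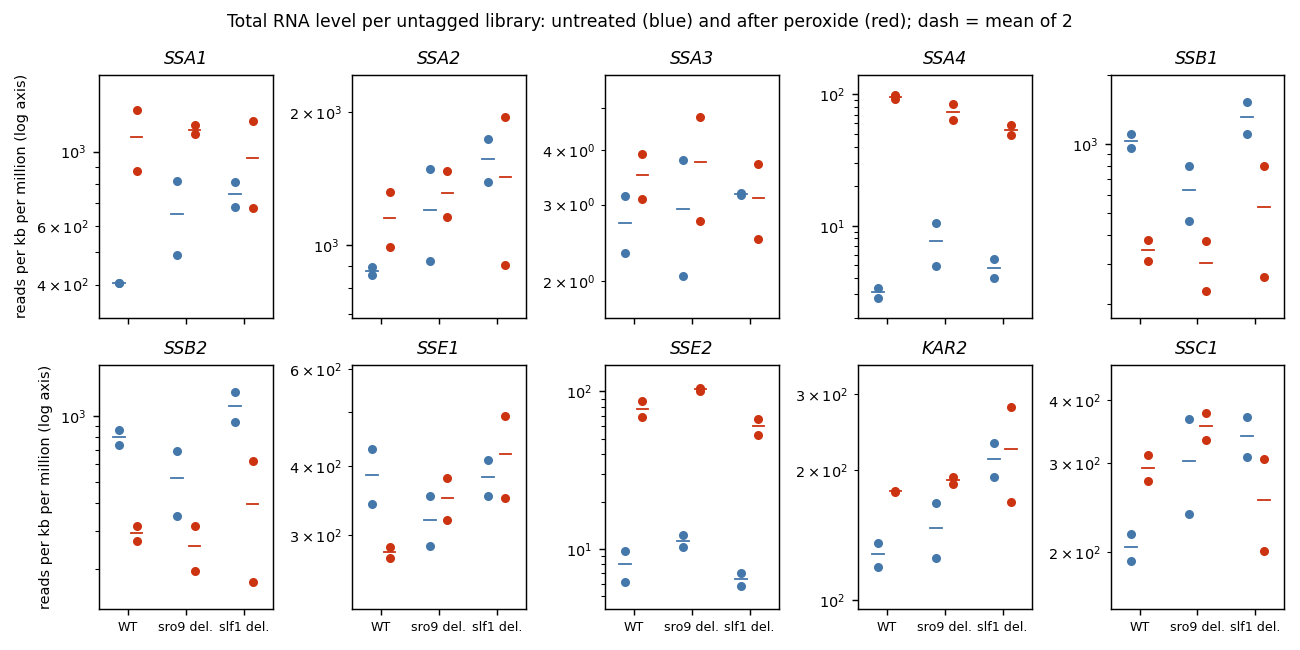
Total RNA level of each gene in the 12 untagged libraries, in CPM per kb on log axes that differ between panels; dots are libraries, dashes the mean of 2, blue untreated and red after peroxide. SSA4 and SSE2 separate by treatment in every strain, SSB1 and SSB2 lie lower after peroxide in WT, and SSA3 stays between 2.06 and 4.77 in all 12.

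SSA4 and SSE2 rose the most after peroxide in WT. SSA4, a stress-inducible cytosolic HSP70, was at 98.5 and 91.6 after peroxide, against 2.84 and 3.39 untreated. The lowest peroxide library was thus far above the highest untreated one. The quasi-likelihood test of edgeR, with p adjusted over all features (Benjamini-Hochberg), gave a log2 change of 4.92 (SE 0.34, adjusted p = 1.03e-07), a 30.2-fold rise. SSE2, the inducible HSP110, was at 86.4 and 69.0 after peroxide, and the groups did not overlap. Its log2 change in the same edgeR test was 3.28 (SE 0.30, adjusted p = 1.23e-06), or 9.68-fold. Even so, both genes stayed below the level of KAR2 (179 and 178 after peroxide).

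SSA1 rose less, from 405 and 404 to 1336 and 875, again without overlap (log2 change 1.45, SE 0.54, edgeR adjusted p = 0.0485). SSB1 fell from 957 and 1105 to 309 and 381 (log2 change -1.58, SE 0.59, edgeR adjusted p = 0.0483). Neither call was firm. Leaving out any single library of WT or sro9Δ, or either untreated slf1Δ library, 10 libraries in all, ended both, with edgeR adjusted p up to 0.295 for SSA1 and 0.266 for SSB1. With untreated and peroxide libraries of equal number blocked as 1 culture, edgeR adjusted p was 0.107 for SSA1 and 0.0718 for SSB1. Without the 3 libraries richest in rRNA both were called (0.0333 and 0.0490).

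SSB2 went the same way as its copy, from 734 and 863 to 268 and 314 with no overlap, but the log2 change of -1.45 (SE 0.60) had an edgeR adjusted p of 0.0699. DESeq2 called it, with an adjusted p of 0.00604. In all, 3 of the 10 genes were called higher and 1 lower in WT by edgeR. Of 7375 features tested, 35.6% were called, 19.4% higher and 16.2% lower, so 4 of 10 is close to the background. DESeq2 called 5 of the 10, and 30.1% of all features it tested.

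The other 5 genes did not pass the test in WT. SSA2, the abundant constitutive SSA, had levels of 1319 and 993 after peroxide, above its untreated 892 and 856 (log2 change 0.40, SE 0.59). SSA3 remained scarce, at 3.93 and 3.09 (0.45, SE 0.35), although it too is a known stress gene. SSE1 was at 273 and 285 (-0.47, SE 0.42), KAR2 at 179 and 178 (0.49, SE 0.37) and SSC1 at 311 and 276 (0.52, SE 0.41). For SSA2, SSE1, KAR2 and SSC1 the peroxide and untreated libraries did not overlap. Each change was nevertheless within 2 standard errors in the fit, which shares 1 estimate of spread over 6 groups. A two-sided exact permutation test of 2 libraries against 2 gives a p of 0.333 at best, so these separations are not read as a response. Of all features, 45.7% had an unadjusted edgeR p under 0.05 in WT, and the share that separates without overlap is not given.

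The order of levels changed accordingly. After peroxide in WT, SSA2 and SSA1 led and overlapped with each other, with means of 1156 and 1105. SSB1, SSC1, SSB2 and SSE1 followed between 279 and 345, each overlapping with the next. KAR2, SSA4, SSE2 and SSA3 came last, in that order and without overlap. Summed over the 10 genes, the share of protein-coding counts was 2.12% and 1.87% untreated and 2.40% and 2.04% after peroxide, so the WT groups overlapped in this sum.

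**Figure D2:**
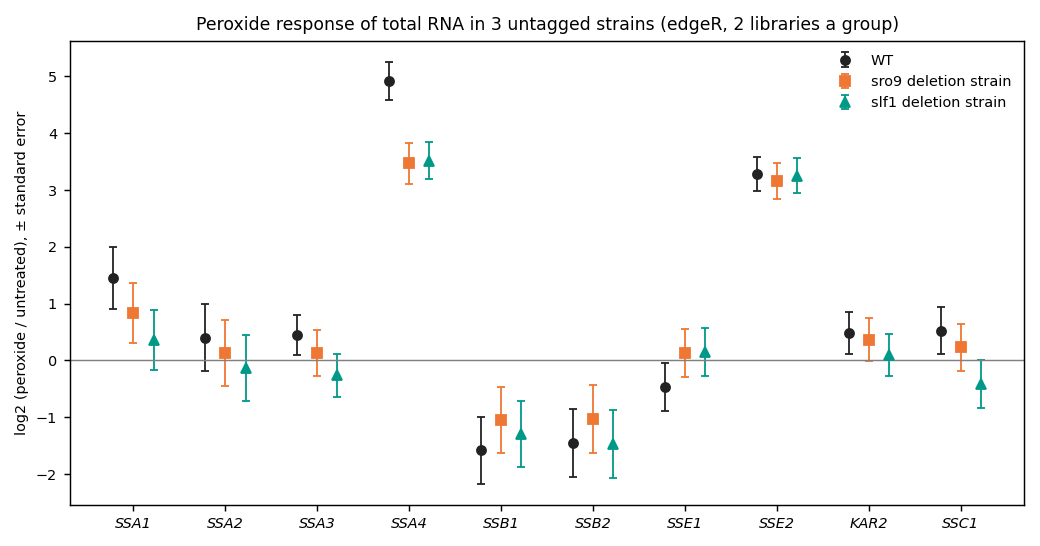
Log2 change of total RNA level after peroxide for each gene in WT, sro9Δ and slf1Δ (edgeR, 2 libraries a group, bars are ± 1 standard error). SSA4 and SSE2 stand at 3.16 or above in all 3 strains, SSB1 and SSB2 between -1.58 and -1.03, and the 6 other genes between -0.47 and 1.45.

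SSA4 and SSE2 also rose in both deletion strains, where no other member was called. In sro9Δ, SSA4 was at 10.4 and 4.93 untreated and 63.7 and 83.6 after peroxide (log2 change 3.47, SE 0.36, edgeR adjusted p = 9.14e-06). Without sro9Δ untreated replicate 2 its log2 change was 2.83 (edgeR adjusted p = 0.00236). SSE2 was at 10.3 and 12.3 untreated and 106 and 101 after peroxide (3.16, SE 0.32, edgeR adjusted p = 7.03e-06). Neither gene had overlapping groups. The background in sro9Δ was 15.9% of features called, 10.4% higher and 5.53% lower, against 2 of 10 members.

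In slf1Δ, SSA4 was at 5.54 and 3.97 untreated and 48.8 and 57.9 after peroxide (log2 change 3.52, SE 0.33, edgeR adjusted p = 2.20e-06). SSE2 was at 7.02 and 5.79 untreated and 53.1 and 67.1 after peroxide (3.25, SE 0.30, edgeR adjusted p = 2.40e-06). The groups of both genes were again far apart, and 2 of 10 members were called against a background of 17.1%, 11.4% higher and 5.75% lower.

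SSB1 and SSB2 differed more between replicates in the deletion strains than in WT. SSB1 in sro9Δ was at 463 and 799 untreated and 378 and 229 after peroxide, without overlap, and its log2 change of -1.05 (SE 0.58) was not called. In slf1Δ it was at 1103 and 1523 untreated and 263 and 803 after peroxide, so the groups did not overlap, but the 2 peroxide libraries differed by more than 3-fold. The fitted change was -1.30 (SE 0.59, edgeR adjusted p = 0.147). It was -0.71 without slf1Δ peroxide replicate 1, the library richest in rRNA, and -2.33 without replicate 2 (edgeR adjusted p = 0.0337).

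SSB2 followed SSB1 in both strains. It was at 348 and 693 untreated and 314 and 196 after peroxide in sro9Δ, and at 938 and 1282 untreated and 175 and 621 after peroxide in slf1Δ. The log2 changes were -1.03 (SE 0.59) and -1.47 (SE 0.60), neither called by edgeR. The value in slf1Δ was -0.84 without peroxide replicate 1 and -2.67 without replicate 2 (edgeR adjusted p = 0.0188). DESeq2 called SSB1 and SSB2 lower in slf1Δ (adjusted p = 0.0183 and 0.00993). The part that the rRNA share plays in these differences was not tested.

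SSA1 was at 490 and 815 untreated and 1202 and 1127 after peroxide in sro9Δ, without overlap (log2 change 0.83, SE 0.54). In slf1Δ it was at 683 and 813 untreated and 680 and 1235 after peroxide, so the groups overlapped. The slf1Δ change of 0.36 (SE 0.53) became -0.14 without peroxide replicate 2. SSA2, SSA3, SSE1, KAR2 and SSC1 had log2 changes between -0.42 and 0.37 in the 2 deletion strains, none of them called.

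In the strain comparisons, 0 of the 10 members were called by edgeR or by DESeq2. Of 7375 features, 0.217% were called between untreated sro9Δ and WT (0.136% higher and 0.0814% lower in sro9Δ) and 0.149% between untreated slf1Δ and WT (0.0678% and 0.0814%). After peroxide the shares were 0.0407%, all lower, for sro9Δ and 0.705% for slf1Δ (0.149% higher and 0.556% lower). At an unadjusted p under 0.05, edgeR picked 1 member in the first and last of these 4 comparisons, SSA4 both times, and 0 in the others. At that threshold stood 9.80% and 14.1% of all features in those comparisons, so 1 of 10 is near the background. SSA4 had a higher value in untreated sro9Δ (log2 1.08, SE 0.36, unadjusted p = 0.00934, edgeR adjusted p = 0.340) and a lower one in slf1Δ after peroxide (-0.82, SE 0.29, unadjusted p = 0.0141, edgeR adjusted p = 0.227).

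The size of the peroxide response itself was compared by an interaction term. The SSA4 response was smaller than in WT by 1.45 log2 units in sro9Δ (difference -1.45, SE 0.46, edgeR unadjusted p = 0.00655, adjusted p = 0.614). In slf1Δ the difference was -1.40 (SE 0.43, edgeR unadjusted p = 0.00491, adjusted p = 0.223). Neither passed the threshold, although the SSA4 level after peroxide was highest in the 2 WT libraries and its untreated level lowest there. Without WT untreated replicate 2 the slf1Δ difference was -1.53 with an edgeR adjusted p of 0.0436. For SSE2 the differences were -0.11 (SE 0.41) and -0.02 (SE 0.40), and for the other 8 members they lay between -1.09 and 0.61, with unadjusted p of 0.130 or more.

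Across all features, edgeR called 0% in either interaction, with 539 and 875 features at an unadjusted p under 0.05, and DESeq2 called 1 and 49.

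In the tagged strains SSA1, SSA4, SSE2 and both SSB genes differed between the labelled treatments in the direction opposite to that in WT. SSA4 was at 219 and 217 in Sro9-TAP libraries labelled untreated and at 39.0 and 37.6 in those labelled peroxide. In Slf1-TAP libraries it was at 305 and 296 when labelled untreated and at 137 and 136 when labelled peroxide. The groups did not overlap, and libraries labelled peroxide were the low ones, as for the Yap1 genes above.

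SSA1 was at 3427 and 3442 in Sro9-TAP libraries labelled untreated and at 1844 and 1819 in those labelled peroxide, and in Slf1-TAP at 2480 and 2108, and 1066 and 1137. SSB1 was at 1258 and 1246 in Sro9-TAP libraries labelled untreated and at 1631 and 1616 in those labelled peroxide. In Slf1-TAP it was at 630 and 532, and at 1214 and 1232. SSA1 was thus lower, and SSB1 higher, where the label said peroxide. KAR2 showed the widest gap among the members without a call in WT, at 145 and 148 against 42.3 and 43.8 in Sro9-TAP and 263 and 262 against 60.1 and 64.8 in Slf1-TAP, with the libraries labelled peroxide lower.

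As labelled, edgeR called 3 members higher and 5 lower in Sro9-TAP (59.2% of features called, 29.9% higher and 29.3% lower) and 3 higher and 7 lower in Slf1-TAP (59.1%, 29.7% higher and 29.5% lower). The higher ones were SSB1, SSB2 and SSE1 in both. The lower ones were SSA1, SSA2, SSA4, SSE2 and KAR2 in both, joined in Slf1-TAP by SSA3 and SSC1. The calls of SSB2 (log2 change 0.28) and SSE1 (0.21) in Sro9-TAP were lost without any 1 of the 4 Sro9-TAP libraries. That of SSB1 (0.37) was lost without the one labelled peroxide replicate 1 (edgeR adjusted p = 0.0609). In Slf1-TAP, SSE1 (0.28) was lost without the library labelled peroxide replicate 1 (edgeR adjusted p = 0.0597). With cultures blocked, edgeR adjusted p in Sro9-TAP was 0.0509 for SSB2 and 0.0791 for SSE1.

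SSA4 and SSE2 were more abundant in all 8 tagged libraries than in untreated WT, with SSA4 at 37.6 or above and SSE2 at 69.2 or above. SSA3 was at 15.2 to 27.9 there. Tagged and untagged libraries were counted and scaled separately, so these levels are set side by side without a test. They also differ in how strand was treated. YAL004W, which lies opposite SSA1, had 34.6% to 39.6% of the SSA1 count in the 12 untagged libraries and at most 0.0412% in the tagged ones. YDL228C, opposite SSB1, had 33.5% to 41.2% and at most 0.0359%. In the untagged libraries reads of these genes and their opposite-strand partners therefore cannot be told apart.

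The partners of HSP70 were read from a list of 30 co-chaperones and minor HSP70 relatives, all of them tested. In WT, 6 were called higher and 7 lower, with a median log2 change of -0.03 against 0.03 over all features. The shares over all features were 19.4% higher and 16.2% lower, near those of the list. Among those called with a change of at least 1 log2 unit, SIS1, an essential J-domain protein of the cytosol and nucleus, rose by 2.68 (SE 0.40, edgeR adjusted p = 0.000141). FES1, a nucleotide exchange factor for Ssa proteins, rose by 2.46 (SE 0.26), and APJ1, a J-domain protein, by 2.41 (SE 0.30). MDJ1, the mitochondrial J-domain partner of Ssc1, rose by 2.39 (SE 0.30), STI1, which bridges HSP70 and HSP90, by 1.42 (SE 0.33), and JAC1, a mitochondrial J-domain protein of iron-sulfur cluster assembly, by 1.15 (SE 0.34).

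Not all partners called lower fell by at least 1 log2 unit. Those that did included JJJ3, a J-domain protein of diphthamide synthesis (-3.21, SE 0.74), and JJJ1, which acts with Ssa in ribosome biogenesis (-2.42, SE 0.50). JJJ2 (-2.08, SE 0.52), CNS1, a co-chaperone of HSP90 (-1.77, SE 0.43), and JEM1, a J-domain protein of the ER (-1.08, SE 0.32), fell as well. Of the same 30, edgeR called 5 higher and none lower in sro9Δ, and 4 higher and 1 lower in slf1Δ, where 10.4% and 5.53%, and 11.4% and 5.75%, of all features were called higher and lower. The mRNA of YAP1, the peroxide-responsive activator, rose in WT by 1.43 (SE 0.27, edgeR adjusted p = 0.000803). Those of HSF1 (0.24, SE 0.26), MSN2 (0.36, SE 0.28) and MSN4 (0.05, SE 0.30) did not pass.

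The SSB genes were also read beside the 138 cytosolic ribosomal protein genes. In WT, 38 of these were called lower by edgeR and none higher, with a median log2 change of -1.09, and the SSB1 and SSB2 values of -1.58 and -1.45 lay below that median. In sro9Δ 15 were lower (median -0.97) and in slf1Δ 5 (median -0.77). Across the 12 untagged libraries, the genes with levels most like SSB1 were its opposite-strand neighbour YDL228C (Pearson r = 0.997), SSB2 (0.993), the ribosomal protein gene RPL13B (0.993), HEK2 (0.990) and RPL5 (0.988). YDL228C shares reads with SSB1 and SSB2 is its near-copy. For SSA4 they were SUT641 (0.995), CYC1 (0.994), FMP23 (0.990), CTA1 (0.988) and SUT063 (0.988). Since treatment divides the 12 libraries into separate groups, these coefficients describe likeness only.

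In PAR-CLIP, the chaperone genes drew 0.99% to 1.48% of mRNA cluster reads of Sro9 and 0.40% to 1.30% of those of Slf1. SSB2 drew the most Sro9 reads, 1218 and 621 in the untreated libraries and 798 and 679 after peroxide. SSB1 drew 501 and 324 untreated and 648 and 270 after peroxide. These are read counts of libraries of unequal depth. Scaled by TMM, SSB2 was at 2695 and 2280 CPM untreated and at 2023 and 2176 after peroxide, lower without overlap as its WT RNA level was, whereas SSB1 overlapped (1108 and 1190, then 1643 and 865).

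**Figure D3:**
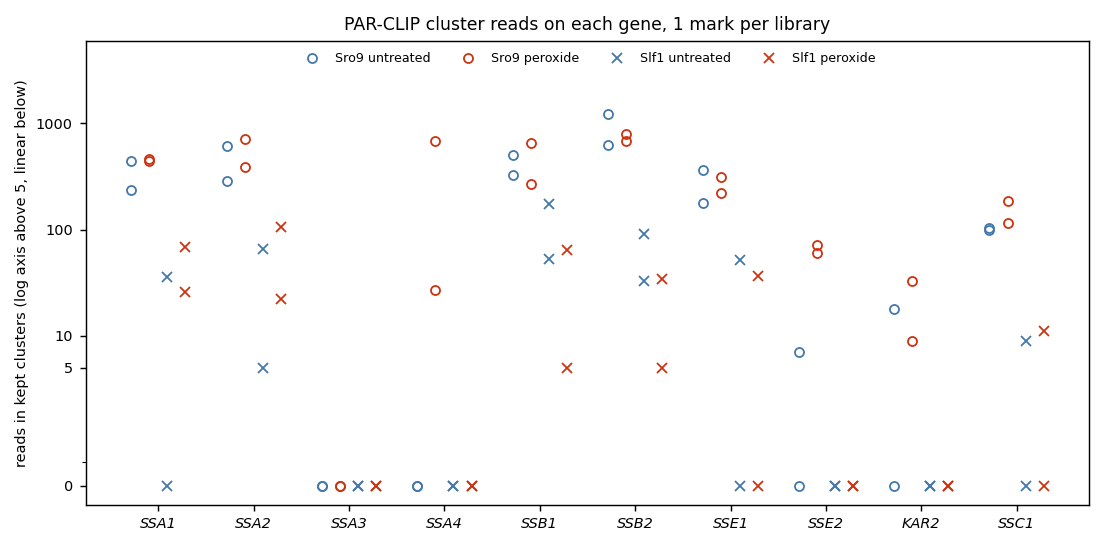
Reads in kept PAR-CLIP clusters on each gene, 1 mark per library, on an axis that is logarithmic above 5 reads and linear below; circles are Sro9, crosses Slf1, blue untreated and red after peroxide. SSA4 has Sro9 reads only after peroxide (685 and 27), SSE2 has 60 and 71 there against 0 and 7 untreated, and SSA3 has none in any library.

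The SSA genes divided by abundance. SSA1 drew 441 and 236 untreated Sro9 reads and 446 and 462 after peroxide, which did not overlap but lay close. SSA2 drew 613 and 285 untreated and 706 and 389 after peroxide, and its groups overlapped. SSA3, which was at 3.93 or less in WT, had no cluster in any of the 8 libraries. Clusters of under 5 reads are not in the tables, so binding below that depth was not detectable.

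SSA4 and SSE2, the genes whose RNA rose most, were the ones whose Sro9 reads appeared with peroxide. SSA4 had none in either untreated library, and 685 and 27 after peroxide, so its replicates lay far apart. SSE2 had 0 and 7 untreated, and 60 and 71 after peroxide, and the groups did not overlap. With a group of SSA4 at 0, and replicates this far apart, no fold is given. Neither gene had a cluster in any Slf1 library.

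Most SSA4 reads after peroxide came from 1 cluster of replicate 1, which held 620 reads but 22 conversions and was absent from replicate 2. It is printed beside the only pair of SSA4 clusters that overlap between the replicates, which held 21 and 18 reads, with capitals for the words named above.

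SSA4, replicate 1, 620 reads, chrV:366204-366256 (plus): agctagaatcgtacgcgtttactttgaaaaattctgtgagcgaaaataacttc
SSA4, replicate 1, 21 reads, chrV:366414-366435 (plus): acggagctgcaggTGGTgcccc
SSA4, replicate 2, 18 reads, chrV:366407-366431 (plus): aaattttacggagctgcaggTGGTg

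The pair has 15 and 16 conversions, close to its read counts, and lies near the end of the coding sequence. The modes of its clusters, at nt 1847 and 1819, are more than 5 nt apart, so they count as separate sites.

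The remaining members were bound at lower or intermediate levels. SSE1 drew 368 and 177 untreated Sro9 reads and 313 and 222 after peroxide. SSC1 drew 104 and 100 untreated and 184 and 116 after peroxide, and its groups did not overlap. Scaled by TMM, SSC1 was at 230 and 367 CPM untreated and at 466 and 372 after peroxide, so the groups nearly met. The share of all PAR-CLIP features that separate without overlap is not given. KAR2, though its RNA was at over 100 in every WT library, drew 0 and 18 untreated Sro9 reads and 33 and 9 after peroxide.

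Slf1 contacted 6 of the 10 genes. SSB1 drew the most Slf1 reads, 53 and 173 untreated and 65 and 5 after peroxide. SSB2 drew 33 and 91 untreated and 34 and 5 after peroxide. SSA2 drew 5 and 66 untreated and 107 and 22 after peroxide, and SSA1 0 and 36 untreated and 69 and 26 after peroxide. SSE1 drew 0 and 52, then 0 and 37, and SSC1 0 and 9, then 11 and 0. For each of these 6 genes the untreated and peroxide libraries overlapped, and replicates of a group differed widely.

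edgeR called no feature in any of the 4 PAR-CLIP comparisons, 0% of 1873 features tested in each. SSA3 did not pass the filter, and the other 9 members did. Peroxide against untreated had 57 features at an unadjusted p under 0.05 for Sro9 and 140 for Slf1. DESeq2 called 15 of the 711 it tested and 89 of 1074. Slf1 against Sro9 had 595 such features untreated and 754 after peroxide, and DESeq2 called 322 and 569 of 1437. For Sro9 after peroxide, the log2 changes were 0.50 (SE 1.68) for SSA1, 0.34 (SE 1.28) for SSA2, 0.13 (SE 1.25) for SSB1, -0.24 (SE 1.02) for SSB2, 0.04 (SE 2.28) for SSE1 and 0.49 (SE 1.93) for SSC1. The sign for SSB1 rests on 1 library, since the change was -0.40 without Sro9 peroxide replicate 1. These errors allow changes of 2-fold or more either way.

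After peroxide, SSB2 had the widest difference between the proteins among the 6 members with Slf1 reads. The log2 difference, Slf1 minus Sro9, was -1.80 untreated (SE 1.06) and -2.91 after peroxide (SE 1.11, edgeR unadjusted p = 0.0380, adjusted p = 0.105). The median over all features tested was itself -2.41 untreated and -6.09 after peroxide, since most features have no Slf1 cluster. DESeq2 called the difference after peroxide (adjusted p = 0.00517), as it called 39.6% of the 1437 features it tested. The SSB2 difference was narrower than the median of all features in both conditions.

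Sro9 reads were next set against RNA level, as cluster reads in CPM per kb over the WT level with the same treatment. These ratios were expressed relative to the median of all bound mRNAs in the library. Only 5 of 32 such values were above 0. The median covers only mRNAs with a kept cluster, which takes at least 5 reads. Scarce mRNAs therefore enter it only at high ratios, and abundant ones also at low ratios. How far this places abundant members below 0 was not tested. The cultures for RNA and for PAR-CLIP were also grown differently, and the part of this in the ratios was not tested. SSB2 stood at 0.02 and -0.53 in the untreated libraries and at 0.77 and 0.98 after peroxide, without overlap. SSB1 was at -1.63 and -1.83 untreated and 0.22 and -0.60 after peroxide, also without overlap. SSA1 went the other way, from -0.53 and -1.01 to -2.06 and -1.57. Both PAR-CLIP replicates of a condition were divided by the same value, the mean of the 2 WT libraries. Their spread thus leaves out that of the RNA, and the change in WT RNA enters each separation. That log2 change was -1.45 for SSB2, -1.58 for SSB1 and 1.45 for SSA1, not called or not firm. These separations changed with the denominator, but the other RNA denominator has treatment labels in doubt and is no check on them. With the total RNA of the Sro9-TAP strain as labelled, the group means of SSB2 were 0.91 untreated and 0.43 after peroxide, those of SSB1 -0.49 and -0.77, and those of SSA1 -2.34 and -0.89, so each order of the conditions turned. No test was run, since the smallest p of a two-sided exact permutation test of 2 libraries against 2 is 0.333.

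**Figure D4:**
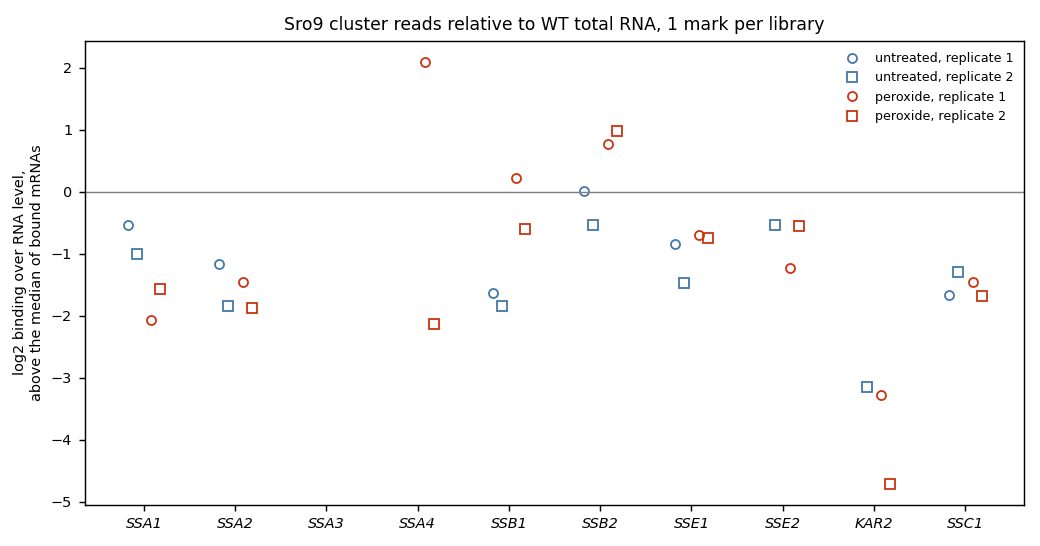
Sro9 cluster reads relative to WT total RNA for each gene, as log2 above the median of all bound mRNAs in the library; circles are replicate 1 and squares replicate 2, blue untreated and red after peroxide. SSB2 lies highest among genes with reads in all 4 libraries, KAR2 lowest at -4.71 to -3.14, and the SSA4 replicates fall at 2.10 and -2.13.

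SSA2 (-1.87 to -1.16), SSE1 (-1.46 to -0.70) and SSC1 (-1.68 to -1.29) lay below the median of bound mRNAs in all 4 Sro9 libraries. KAR2 was lowest, at -3.14 in untreated replicate 2 and -3.28 and -4.71 after peroxide. SSE2, with -0.53 in 1 untreated library and -1.24 and -0.55 after peroxide, lay below the median as well. Of the 19 Slf1 values, 0 were above the median, and they ran from -5.91 to -1.06, with the same limit on the median. Because the total RNA of tagged strains has doubtful labels, WT served as the denominator. With the tagged RNA as labelled, 4 group means rather than 1 were above 0, and with sites in the coding sequence alone 3 were.

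Sites were scattered along the coding sequences. Of the Sro9 clusters in coding sequences of the members, 27.3% of the untreated and 24.2% of the peroxide ones lay in the last 20% of the sequence, against 34.1% and 32.9% over all protein-coding genes. SSA2, SSA1, SSB1 and SSB2 had the most sites, 60, 55, 53 and 52. Of the 302 sites, 234 were seen in 1 of the 8 libraries and 6 recurred in all 4 Sro9 libraries. Of the 49 sites found in any Slf1 library, 28 had no Sro9 site within 5 nt.

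**Figure D5:**
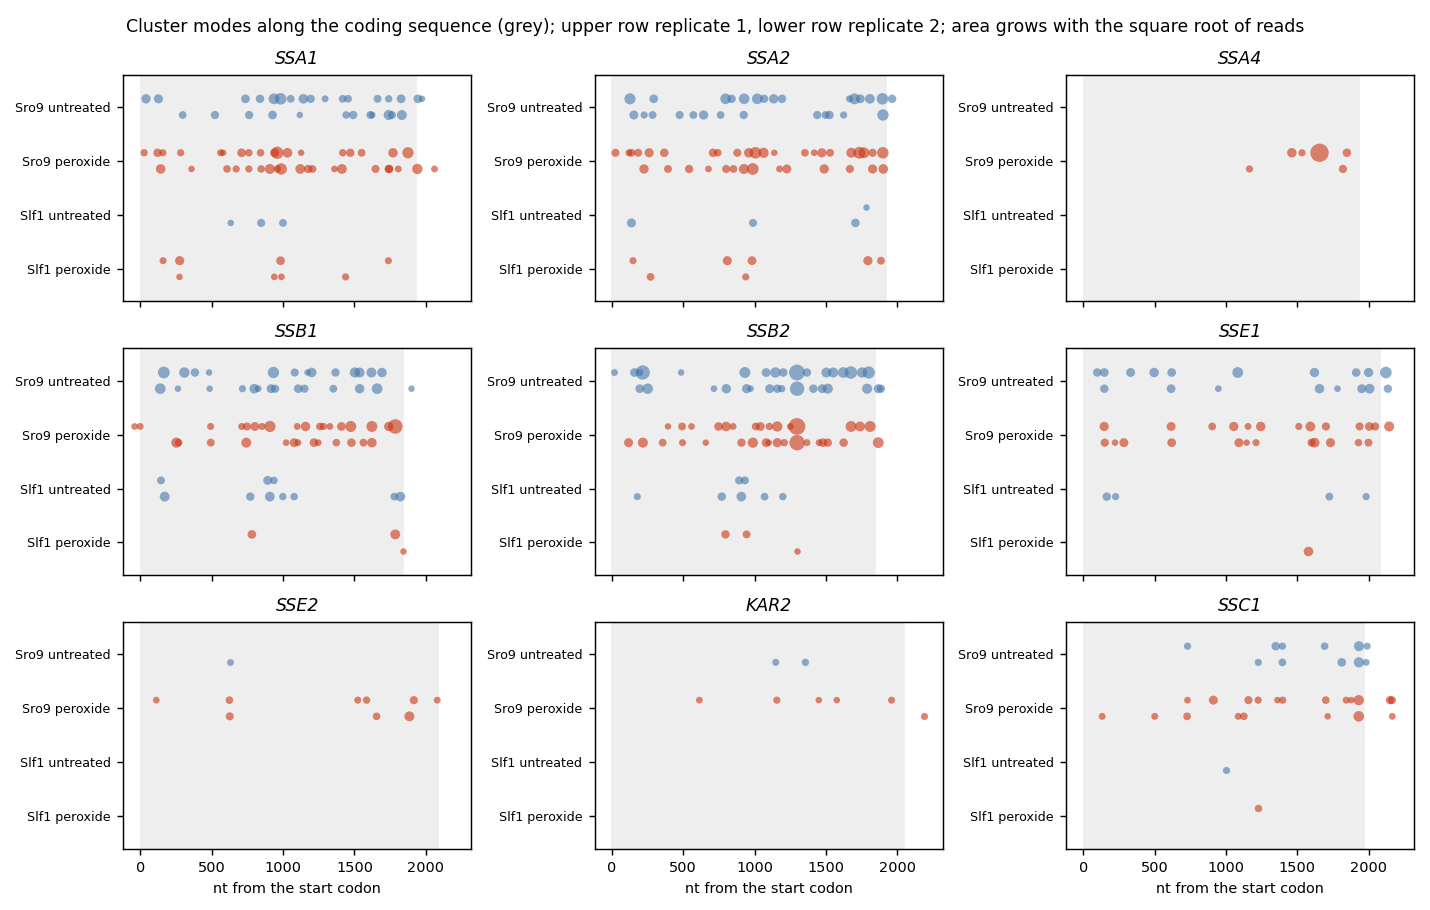
Modes of PAR-CLIP clusters along each coding sequence (grey), in nt from the start codon, with replicate 1 above replicate 2 and dot area growing with the square root of reads. SSA2, SSA1, SSB1 and SSB2 have the most sites, and SSA4 has dots only in the Sro9 peroxide libraries; SSA3, with no cluster, is not drawn.

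The same 4 words, TGGT and TGCT together with those that begin with C, occurred in 66.7% to 73.3% of the members' coding clusters in the 4 Sro9 libraries, against 45.8% to 49.7% of all coding clusters. The members' clusters were also longer, with medians of 33.5 to 39 nt against 27 to 31 nt, and the part of length in this was not tested. In the Slf1 libraries, with 6 to 23 such clusters each, the shares were 44.4% to 82.6%, against 54.9% to 60.9% over all.

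A word of 14 nt on the coding strand, rich in TGGT and free at 1 base, is shared by 5 of the 10 coding sequences and by 7 of 6027 in all (0.116%). It was chosen after site reads had been seen. The stretches around it are printed from the RefSeq R64 sequence, with the word in capitals, to set near-identical code beside its cluster reads.

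SSA1, word at nt 997, chrI:140407-140450 (minus): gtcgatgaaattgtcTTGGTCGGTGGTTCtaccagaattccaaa
SSA2, word at nt 997, chrXII:96461-96504 (minus): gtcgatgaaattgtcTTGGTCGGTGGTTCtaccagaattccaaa
SSB1, word at nt 1015, chrIV:45064-45107 (plus): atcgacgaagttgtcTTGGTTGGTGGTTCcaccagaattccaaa
SSB2, word at nt 1015, chrXIV:253058-253101 (plus): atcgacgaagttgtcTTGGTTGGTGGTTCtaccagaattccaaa
KAR2, word at nt 1141, chrX:382452-382495 (plus): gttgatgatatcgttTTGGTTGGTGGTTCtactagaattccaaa

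At SSA1, clusters over the word held 86 and 0 Sro9 reads untreated and 114 and 81 after peroxide. At SSA2, whose printed stretch is the same, they held 60 and 0 untreated and 87 and 91 after peroxide. Reads there cannot be assigned to 1 of the copies. At SSB1 a single Sro9 library had reads (6, peroxide replicate 2), at SSB2 a single one (14, peroxide replicate 1), and at KAR2 the untreated replicate 2 and peroxide replicate 1 libraries had 8 and 9. Over all libraries, 57.1% of SSA1, 44.9% of SSA2, 40.7% of SSB1 and 24.2% of SSB2 cluster reads lay in clusters whose sequence has a second copy in the genome. The other 5 bound members had none.

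The 500 nt before each start codon were searched on both strands for motifs of the known activators. The heat shock element, 3 units of GAA and TTC in alternation with gaps of 2 nt and either unit first, was found before 4 members, SSA1, SSA2, SSE1 and KAR2, and before 1.48% of 6006 genes. The stress response element bound by Msn2 and Msn4, AGGGG or CCCCT, was found before SSA1, SSA4, SSE2 and SSC1, and before 34.1% of genes. The Yap1 site TTACTAA or TTAGTAA was found before SSE2, and before 11.8% of genes. The core of the unfolded protein response element, CAGCGTG or CACGCTG, was found before KAR2, and before 2.33% of genes. The stretches before SSA1, SSA4 and SSE2, the genes called higher in WT, are printed from RefSeq R64, with motif matches in capitals.

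SSA1, heat shock element, chrI:141763-141810 (minus): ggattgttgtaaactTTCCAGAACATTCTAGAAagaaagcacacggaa
SSA4, stress response elements, chrV:364107-364176 (plus): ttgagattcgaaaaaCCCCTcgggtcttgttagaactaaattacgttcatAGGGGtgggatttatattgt
SSE2, stress response element, chrII:576203-576237 (minus): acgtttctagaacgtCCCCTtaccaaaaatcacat

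The 2 forms of the heat shock element can overlap, as they do in the SSA1 stretch, and the SSA4 stretch holds 2 of its 3 matches. The 3 genes called higher in WT all had a stress response element, as did SSC1, which was not called, and 3 of the 4 genes with the heat shock element were not called. Only complete matches to the stated letters were counted. A gene without a match is therefore not shown to lack a heat shock element. The stress response element was found before 34.1% of all genes. Whether either motif accounts for the calls was not tested. A match of letters is a description of the sequence and not evidence of a bound site.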

How the data were processed

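The 28 libraries were 20 of total RNA and 8 of PAR-CLIP, in 14 groups of 2. Per the labels, reads were trimmed with Trim Galore, mapped with Bowtie 1.2.0 to R64 (sacCer3) and counted with featureCounts. The deposited total RNA values are counts per feature without normalization. The authors called PAR-CLIP clusters in each library with PARalyzer, keeping groups of at least 5 reads, and the deposited tables give counts of reads and conversions for every cluster. The deposited score at the mode of each cluster, a fraction, was not used. All 36054 cluster sequences that were compared equalled the reference (100%), which settled the build and the strand.

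Clusters with at least 5 reads, at least 2 T-to-C conversions and 11 to 100 nt were kept and placed on the feature under their mode, with 100 nt before and 200 nt after each coding sequence counted to its gene, since the annotation has no untranslated regions. Reads that fell on no feature, 45.3% to 60.0% for Sro9 and 70.4% to 85.8% for Slf1, were concentrated at 3 loci without annotation (74.6% to 89.8%) and stayed in the library totals.

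Counts were fitted over all features with edgeR 4.0.16 (R 4.3.3; TMM, filterByExpr, quasi-likelihood test), apart for the 12 untagged, the 8 tagged and the 8 PAR-CLIP libraries, with Benjamini-Hochberg adjustment over all features of a comparison. A feature was called where its adjusted p was under 0.05, and SE is the absolute log2 change over the root of F. Alternatives were DESeq2 1.42.0, other scalings and filters, fits to the groups compared, blocks by replicate number or culture, and each library left out. Other steps used Python 3.11.15. Of these steps, the edgeR fits were run on simulated data, with the spread of the PAR-CLIP set capped, and the outcome is not given.

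The members were chosen by systematic name, with no measured value in the choice. Earlier results of these data were nevertheless known when the members, the gene lists and the tests were chosen. Named genes were the 10 members, co-chaperones called in WT with an absolute log2 change of at least 1, 4 regulators, the Yap1 check genes, and the 5 features with levels most like SSA4 and SSB1 (Pearson r of log2 of CPM plus 1). The labels state that cultures were split for treatment, so libraries of equal number were taken as 1 culture in the culture block. Their deviations from group means correlated by -0.14 in WT, -0.04 in sro9Δ, 0.19 in slf1Δ, -0.01 in Sro9-TAP and 0.16 in Slf1-TAP, and in PAR-CLIP by -0.12 for Sro9 and -0.05 for Slf1. One site that recurred in the Sro9 libraries is not reported here.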

Additional observations from a re-analysis of the deposited data

Results flagged for a closer look

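Under their labels, the tagged libraries moved opposite to those of WT. Under the treatment labels, both libraries labelled peroxide moved one way from both labelled untreated in Sro9-TAP and Slf1-TAP, and the opposite way in WT, for 9 members. In the edgeR fits the log2 changes in Sro9-TAP, Slf1-TAP and WT were -0.91, -1.06 and 1.45 for SSA1, -0.47, -0.50 and 0.40 for SSA2, and -2.51, -1.13 and 4.92 for SSA4. They were 0.37, 1.07 and -1.58 for SSB1, 0.28, 0.89 and -1.45 for SSB2, and 0.21, 0.28 and -0.47 for SSE1. For SSE2 they were -1.28, -0.73 and 3.28, for KAR2 -1.77, -2.07 and 0.49, and for SSC1 -0.05, -0.44 and 0.52. These differences between tagged and WT libraries were not tested, because the tagged and untagged libraries were fitted apart. With the labels in doubt, they cannot be assigned to strain. The share of all features that reverse in this way is not given. The Yap1 check genes were lower in the same libraries labelled peroxide, and the deposited names of all 8 tables give the other treatment and the other tagged strain than the labels.

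A cluster on the strand opposite SSA4, at chrV:366490-366502, entered none of the comparisons. It held 42 and 15 reads in the untreated Sro9 libraries and 20 and 31 after peroxide, with 6 to 16 conversions, and had no reads in any kept cluster of the 4 Slf1 libraries. The groups overlapped, unlike the sense reads on SSA4, which appeared only after peroxide.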

How the results depend on the processing

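Of the values recomputed under the alternatives, those of SSA4 and SSE2 in WT, sro9Δ and slf1Δ were called in every one, over log2 ranges of 4.81 to 5.06 and 2.99 to 3.65 in WT with 1 library left out. The 4 members called in WT fell to 2 without a filter on low counts, with the replicate block by culture, and with that block and the WT numbers crossed (2545 features called), and were 2 to 5 with 1 library left out. The replicate block by number alone kept 4. The culture block also left 6 of the 8 calls in Sro9-TAP, and blocks changed no other call of a member in total RNA except that of SSE1 in Sro9-TAP, which was lost with the block by number too. With the PAR-CLIP numbers of Sro9 after peroxide crossed, 0 members were called. In slf1Δ 4 members were called by DESeq2 and 2 to 4 with 1 library left out, where SSA1 ran from -0.14 to 0.73. The slf1Δ interaction gave 0 to 1 calls with 1 library left out. Sro9-TAP gave 5 to 8, with SSA3 from -0.040 to 0.22. SSB1 in Sro9 PAR-CLIP ran from -0.40 to 0.55. Slf1 against Sro9 gave 1 call at 20 or more reads per cluster, untreated and after peroxide, and 1 by DESeq2 after peroxide. Group means of binding over RNA above the median were 1, but 4 with tagged RNA, 3 with coding sites alone, and 1 to 3 with 1 library left out. Over all features, calls ranged with 1 library left out from 944 to 3151 in WT (2627 with all), 365 to 1714 in sro9Δ (1174) and 490 to 1911 in slf1Δ (1264). In other settings they ranged from 1837 to 2680, 432 to 1540 and 755 to 1978. Calls between strains ranged over all settings from 2 to 602 and 0 to 1043 untreated, and 1 to 32 and 0 to 412 after peroxide, and in the interactions up to 487 and 858. In PAR-CLIP they ranged up to 15, 89, 322 and 569. The cause of these changes was not tested. The crossed blocks and the fit without the 3 libraries richest in rRNA were chosen after seeing the data. Depth limited the libraries richest in rRNA, where SSA3 had 3, 4 and 12 counts, and Slf1, where a cluster of under 5 reads is not listed.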
